A study of Oryctolagus cuniculus with 27 samples.

Results

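Aortic valve cusps from rabbits fed a cholesterol and vitamin D2 diet for 4 weeks were compared with cusps from rabbits on regular chow. The comparison takes 8 of the 27 RNA sequencing libraries of the series, 4 of diet valves and 4 of control valves, chosen by their labels alone, and describes every gene in the valve table from which the authors had taken out genes they assigned to heart muscle.

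All animals were male New Zealand rabbits of wild-type genotype, and their age is not given in the sources used here. The diet group received feed with 1% cholesterol together with 3500 IU of ergocalciferol (vitamin D2) per kg and day for 4 weeks. Control animals received regular chow. Their titles name 7 weeks for control replicates 1 to 3 and 2 weeks for the control called replicate 4 here, whose own title numbers it 1, whereas the design text speaks of controls pooled from 2 and 4 weeks, so the time on chow of the controls is uncertain and no control carries a 4-week label. Each library was made from 1 cusp freed of most of its surrounding fat, and the 8 libraries carry 8 different animal codes. A cusp holds interstitial, endothelial and immune cells, and heart muscle adjoins its base. In such bulk RNA, fewer cells of a type and less RNA per cell cannot be told apart.

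An aortic cusp is a thin leaflet of interstitial cells in layers of collagen, proteoglycan and elastin under an endothelium. In cholesterol-fed rabbits, lipoproteins lodge in the leaflet as they do in arteries, and monocytes enter on endothelial adhesion molecules and chemokines, become macrophages and take up modified lipoprotein through scavenger receptors. An excess of vitamin D raises blood calcium and favours mineral deposits, so that the combined diet is used to model early aortic valve calcification. Macrophages in such lesions can arrive from blood or divide in place, and the transcripts of cell division are therefore of interest beside those of macrophage identity.

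The 8 libraries held 10.2 to 19.4 M counts. Levels are given as CPM (counts scaled to a common library total) with the TMM factors of the fit, for replicates 1, 2, 3 and 4 in that order. Differences are log2 fold changes, diet minus control, ± the standard error of edgeR's quasi-likelihood fit, and a gene was called at a Benjamini-Hochberg adjusted p under 0.05 over the 15627 genes tested. The interstitial markers VIM (4052 to 5363 CPM in controls, 4105 to 5749 after diet) and DCN (2269.5 to 2520.2 and 1558 to 1904) were abundant in every library. The labels give nothing on RNA quality. The share of counts on RN18S, the 18S ribosomal RNA, was 0.282% to 0.516% after 4 weeks and 0.476% to 2.07% in controls, and its part in the results was not tested beyond the covariate fits. Diet replicate 4 stood closer to the controls than to its own group. Across genes its log2 levels correlated with those of the 4 controls at r = 0.952 to 0.968 and with the other 3 diet libraries at 0.944 to 0.954.

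After 4 weeks of diet 321 of 15627 genes passed the threshold (2.05%), 313 of them higher (2.00%) and 8 lower (0.0512%). Most of the higher genes moved far: 284 of the 313 had a log2 fold change over 1, and their median was 2.22. In 236 of the 313 all 4 diet libraries lay above all 4 controls, an arrangement found in 644 genes of all those tested (4.12%). In 7 of the 8 lower genes all 4 diet libraries lay below the controls (312 of all genes, 2.00%). Diet replicate 4 was the lowest of its group in 293 of the 313 higher genes, against 27.6% of all genes tested, and diet replicate 3 was the highest in 201. Among the controls, replicate 1 was the highest in 247. DESeq2 called 695 higher and 56 lower genes, and without diet replicate 4 edgeR called 735 and 59. The smallest adjusted p was 0.0188, and 1986 genes had an unadjusted p under 0.05.

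These calls rest on few libraries. Without diet replicate 3, or without control replicate 2, 3 or 4, 0 genes passed by edgeR, although 1505, 2085, 1540 and 1787 genes kept an unadjusted p under 0.05. The count was 158 without diet replicate 1, 50 without diet replicate 2, 794 without diet replicate 4 and 409 without control replicate 1. With only the 8 libraries in the fit, 2 genes passed. The spread was then estimated from fewer libraries, and the cause of the drop was not tested. All of the 321 genes that these fits tested kept the sign of their difference. The losses hold for every gene called in the paragraphs that follow. With 1 library left out, called genes such as MYL4, SLN, MYH8, NOS3 and CDK5 passed in 1 of 8 fits. VCAM1 and COL1A1, which were not called, passed in 2 of these 8 fits.

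**Figure D1:**
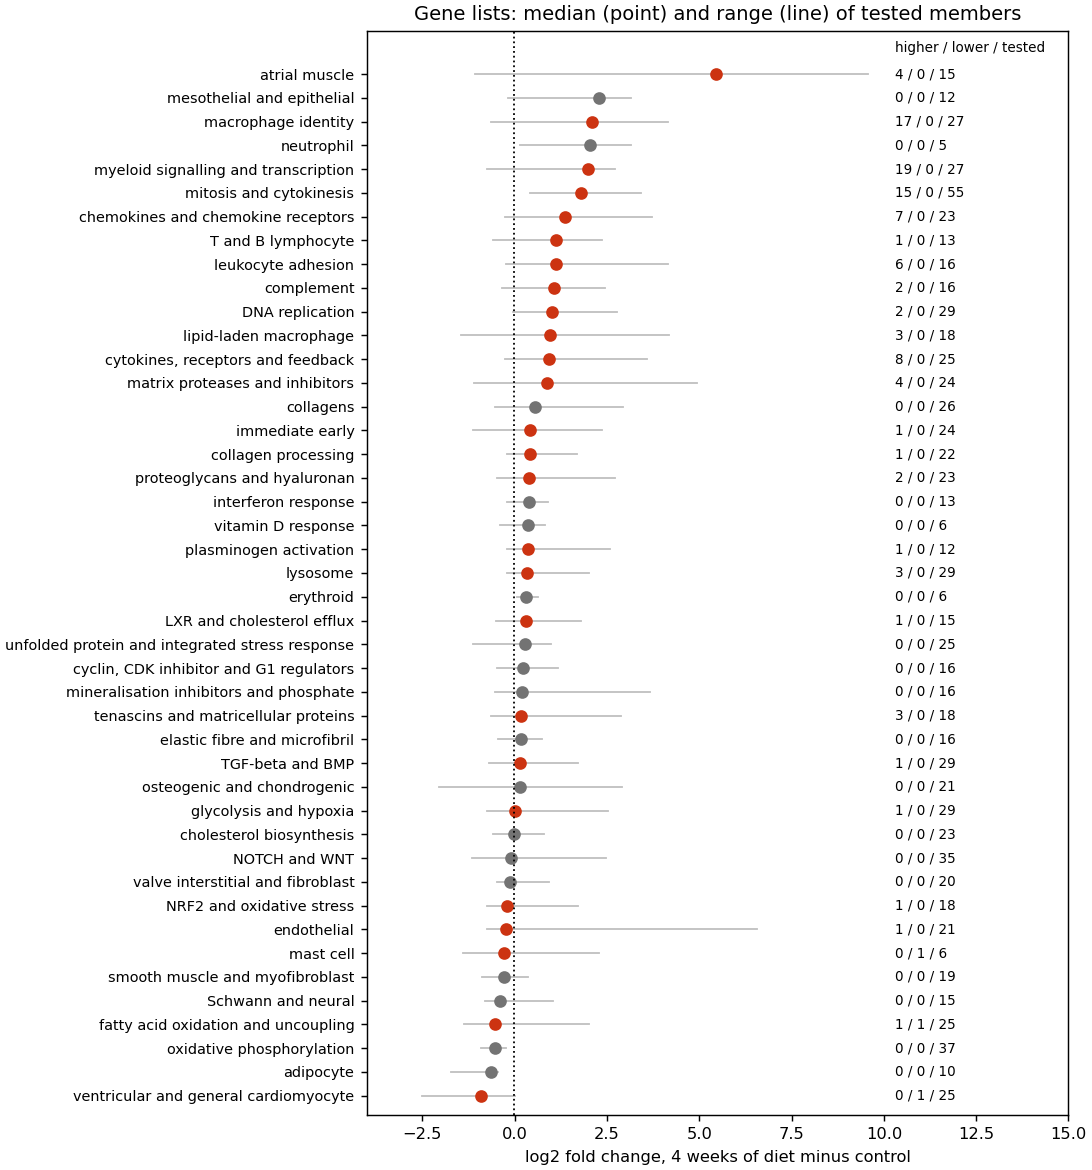
For each of 44 gene lists, the point is the median and the line the range of the log2 fold changes of the tested members, 4 weeks of diet minus control. Red points mark lists with at least 1 called member, numbers at the right give members higher, lower and tested, and the dotted line is the median of all genes (-0.03). By median, the atrial muscle list is at the top, followed by the mesothelial and epithelial, macrophage, neutrophil, myeloid signalling and mitosis lists (the mesothelial and neutrophil lists with 0 called members), and ventricular and general cardiomyocyte genes at the bottom.

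Genes of macrophage identity were higher after 4 weeks. Of 27 members tested 17 rose and 0 fell, with a median of 2.10 beside -0.03 for all genes. MSR1, a scavenger receptor that takes up modified lipoprotein, was at 2.704, 0.304, 0.653 and 0.719 CPM in controls and at 7.81, 12.2, 20.6 and 4.92 after diet, and rose by 3.36 ± 0.57 (adjusted p = 0.0188). The groups did not overlap, with diet replicate 3 the highest and diet replicate 4 the lowest of the treated valves. CD14, the co-receptor for endotoxin, was at 20.2, 8.21, 8.16 and 15.998 CPM in controls and at 76.2, 93.5, 128 and 25.6 after diet (2.62 ± 0.47). ITGB2, the beta chain of the leukocyte integrins, rose from 19.4, 5.35, 5.39 and 9.44 CPM to 74.6, 84.1, 206 and 27.7 (3.31 ± 0.59). In both genes diet replicate 4 was the lowest diet library and control replicate 1 the highest control, and the groups did not overlap. TYROBP, an adaptor of activating myeloid receptors, rose by 2.56 ± 0.50, FCER1G, the common Fc receptor gamma chain, by 2.499 ± 0.48, and SPI1, the transcription factor PU.1, by 2.48 ± 0.45.

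In some other macrophage genes, CD68, CD163 and AIF1 among them, diet replicate 4 fell inside the control range. In LAPTM5, ITGAX, ITGAM and ITGAL, also given here, diet replicate 4 lay above all controls. CD68, a late endosomal protein, was at 23.8, 12.5, 8.73 and 17.5 CPM in controls and at 69.7, 74.1, 94.2 and 22.9 after diet (2.06 ± 0.39). CD163, the scavenger receptor for haemoglobin, was at 16.7, 11.5, 10.8 and 6.92 CPM and 33.4, 117, 40.2 and 11.7 (2.13 ± 0.52). It was highest in diet replicate 2, without which it stood at 1.30 ± 0.40. AIF1 (2.02 ± 0.38), the complement receptor VSIG4 (1.92 ± 0.38) and LAPTM5, a lysosomal membrane protein of leukocytes (1.83 ± 0.37), rose too. CYBB, the catalytic subunit of the phagocyte NADPH oxidase, rose by 2.21 ± 0.44. The 3 leukocyte integrin alpha chains on the lists rose as well: ITGAX (CD11c) by 4.16 ± 0.81, ITGAM (CD11b) by 3.21 ± 0.72 and ITGAL (CD11a) by 2.85 ± 0.65. Without diet replicate 3 ITGAX stood at 3.08 ± 0.68, ITGAM at 2.41 ± 0.65 and ITGB2 at 2.65 ± 0.52. Control replicate 1 was the highest control for many of these genes, and without it MSR1 stood at 4.35 ± 0.55, ITGAX at 5.05 ± 0.91 and ITGAM at 3.98 ± 0.79. Summed over the list, macrophage transcripts took 769.6, 379, 361 and 546 CPM in controls and 1956, 2788, 3064 and 757 after diet, so that diet replicate 4 lay just below control replicate 1.

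**Figure D2:**
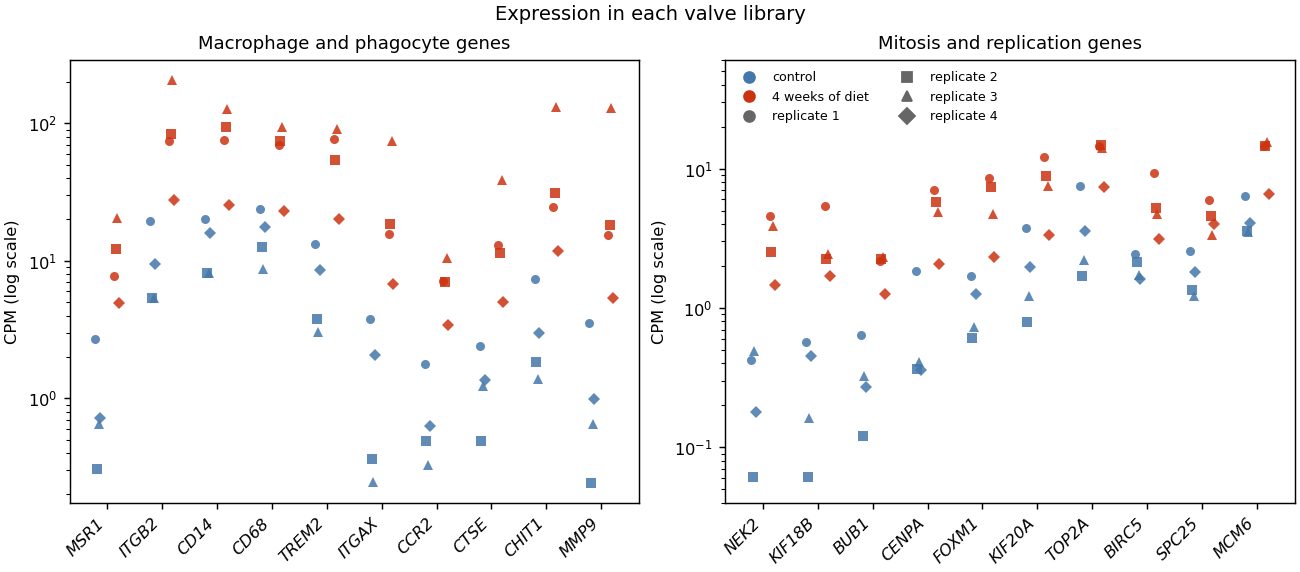
Level of 10 macrophage and phagocyte genes and of 10 mitosis and replication genes in each library, in CPM on a log axis. Colour marks the group and the marker shape the replicate. In most genes diet replicate 4 (diamonds) is the lowest diet library and control replicate 1 (circles) the highest control. ITGAX, MMP9 and CHIT1 spread the most within the diet group.

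Signalling and transcription genes of myeloid cells were higher as well. Of 27 tested members 19 rose and 0 fell (median 1.99). IRF5, a transcription factor of inflammatory macrophages, was at 8.397, 4.56, 2.61 and 6.02 CPM in controls and 34.7, 35.6, 47.7 and 12.5 after diet (2.59 ± 0.42, adjusted p = 0.0188), without overlap. CORO1A, an actin regulator of leukocytes, was at 9.32, 3.53, 3.18 and 7.46 CPM in controls and 41.96, 40.7, 46.5 and 12.6 after diet (2.59 ± 0.42). Among kinases and phosphatases, SYK, which acts below Fc receptors, rose by 2.34 ± 0.45 and PTPN6 (SHP-1) by 2.15 ± 0.38. DOCK2, a Rac activator of migrating leukocytes, rose by 1.99 ± 0.34. Of transcription factors, RUNX1 rose by 2.08 ± 0.41 and CEBPB by 0.91 ± 0.17. CEBPB had the tightest groups of these, at 33.7, 37.3, 32.7 and 34.96 CPM in controls and 62.5, 70.4, 85.9 and 42.7 after diet. The 8 genes that did not pass included CEBPA, the 1 member with a negative value.

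The genes with a symbol, no overlap between groups, a mean of at least 5 CPM and the largest differences included CHIT1, CTSE and CLEC5A beside genes of macrophages, chemokine receptors and atrial muscle given elsewhere. CHIT1, the chitinase secreted by lipid-laden macrophages, was at 7.33, 1.82, 1.39 and 2.97 CPM in controls and 24.8, 30.9, 131 and 11.8 after diet (3.87 ± 0.76). CTSE, an aspartic protease of antigen-presenting cells, was at 2.42, 0.487, 1.22 and 1.35 CPM and 13.1, 11.5, 38.99 and 5.02 (3.65 ± 0.62), and CLEC5A, a myeloid C-type lectin, at 2.28, 0.182, 0.653 and 1.89 CPM and 10.8, 7.64, 32.3 and 4.97 (3.49 ± 0.65). In each of these genes diet replicate 3 was 3 or more times the level of diet replicate 4. Without diet replicate 3 CHIT1 stood at 2.73 ± 0.60, CTSE at 2.85 ± 0.51 and CLEC5A at 2.65 ± 0.55. Without control replicate 1 CHIT1 stood at 4.59 ± 0.85.

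Chemokine receptors of monocytes and 3 ligands rose. The list had 7 of 23 tested members higher and 0 lower (median 1.38). CCR2, the receptor that brings inflammatory monocytes out of the marrow, was at 1.78, 0.487, 0.327 and 0.629 CPM in controls and at 7.15, 7.04, 10.6 and 3.41 after diet (3.11 ± 0.69). CCR1 rose by 3.72 ± 0.90 and CX3CR1, the receptor for fractalkine, by 1.67 ± 0.40. CX3CR1 kept a narrow control range of 1.62 to 2.29 CPM. Of the ligands, CCL2, which binds CCR2, was at 4.77, 2.01, 1.55 and 1.44 CPM in controls and at 14.5, 17.8, 15.5 and 5.07 after diet (2.42 ± 0.49). CCL19, a ligand of CCR7, rose by 2.54 ± 0.54 and CXCL8, the neutrophil attractant interleukin 8, by 3.24 ± 0.78. CXCL8 was scarce, at no more than 0.285 CPM in controls and 1.45 CPM after diet. Left-out libraries moved several of these values: CCR1 stood at 2.47 ± 0.78 without diet replicate 3, and without control replicate 1 CCR1 stood at 4.80 ± 1.05, CCR2 at 3.84 ± 0.77 and CXCL8 at 4.84 ± 0.93.

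Among cytokine receptors and feedback regulators 8 of 25 rose and 0 fell (median 0.93). SOCS3, a feedback inhibitor of cytokine receptors that is induced through STAT3, was at 12.2, 5.23, 6.37 and 8.54 CPM in controls and 35.5, 39.002, 43.4 and 15.1 after diet (2.04 ± 0.31, adjusted p = 0.0188). IL1RN, the secreted antagonist of interleukin 1, was at 5.12, 0.791, 0.653 and 2.43 CPM and 21.97, 17.3, 42.4 and 8.08 (3.32 ± 0.62, and 4.13 ± 0.65 without control replicate 1). The agonist IL1B was scarce and did not pass, at 0.285, 0.0608, 0.408 and 0 CPM in controls and 0.304, 1.22, 0.621 and 0.251 after diet (1.57 ± 0.81, adjusted p = 0.45002). CSF1, the growth factor of macrophages, was at 59.9, 55.3, 45.8 and 41.7 CPM in controls and 98.2, 108, 111 and 55.8 after diet (0.88 ± 0.21). The receptors IL10RA (2.29 ± 0.43), CSF2RA (2.43 ± 0.48), IL6R (1.38 ± 0.32), IL4R (1.33 ± 0.32) and TNFRSF1B (0.93 ± 0.22) rose beside it, with CSF2RA at 3.05 ± 0.47 without control replicate 1.

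Of 16 leukocyte adhesion genes 6 rose and 0 fell (median 1.13). They were the 4 integrin chains given above, SELPLG, the leukocyte ligand of P-selectin (2.48 ± 0.42), and ICAM1, the endothelial and macrophage ligand of ITGB2. ICAM1 was at 37.9, 30.5, 27.8 and 30.5 CPM in controls and 74.9, 81.5, 96.7 and 34.7 after diet (1.18 ± 0.25), with diet replicate 4 inside the control range. VCAM1, which binds monocytes through integrin alpha 4, was at 55.3, 26.3, 29.4 and 29.3 CPM and 85.03, 120.5, 94.9 and 46.4 and did not pass (1.30 ± 0.34, adjusted p = 0.0587). Over the main fit and its alternatives, 21 in all, VCAM1 passed in 3, 2 of them with 1 library left out.

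Complement receptors rose, and complement components did not pass. Of 16 complement genes tested 2 rose and 0 fell (median 1.08): C5AR1, the C5a receptor, at 9.68, 5.41, 4.41 and 7.55 CPM in controls and 32.2, 43.4, 59.4 and 12.4 after diet (2.45 ± 0.42), and C3AR1, the C3a receptor, at 2.704, 2.07, 1.31 and 1.53 and 5.94, 13.8, 8.74 and 4.22 (2.09 ± 0.33). The groups did not overlap in either gene.

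Genes of antigen presentation and of leukotriene synthesis were also among those called; they were on no list except CD74 and were chosen after their values were seen. CD74, the invariant chain of class II molecules, was at 280.4, 66.9, 65.2 and 182 CPM in controls and at 704, 895, 1012 and 258 after diet (2.27 ± 0.54). RLA-DRB1, a rabbit class II beta chain, was at 67.6, 18.3, 17.4 and 42.5 CPM and 168, 257, 271 and 65.01 (2.38 ± 0.54). In both genes diet replicate 4 was below control replicate 1. RLA-DMA (2.30 ± 0.52) and RLA-DMB (2.41 ± 0.56), which help load peptide, rose too, RLA-DMB standing at 3.02 ± 0.59 without control replicate 1. CIITA, the transactivator of class II genes, was at 1.49, 1.03, 1.39 and 0.809 CPM in controls and 5.63, 4.95, 7.34 and 3.21 after diet (2.15 ± 0.45), with no overlap, and the co-stimulatory ligand CD80 rose by 2.76 ± 0.54 (2.05 ± 0.46 without diet replicate 3). Class II genes form a family of near-identical copies, and reads shared between copies can be assigned to either. ALOX5, which makes leukotrienes, rose by 1.40 ± 0.30 and its partner protein ALOX5AP by 1.68 ± 0.39. PTAFR, the receptor for platelet-activating factor, rose by 2.89 ± 0.51 (2.12 ± 0.38 without diet replicate 3).

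Further called genes, likewise chosen after their values were seen, included MPEG1, the pore-forming perforin-2 of phagocytes (3.02 ± 0.56), and LCP1, the leukocyte actin bundler plastin 2 (2.75 ± 0.52, and 3.40 ± 0.50 without control replicate 1). FCGR1A, the high-affinity immunoglobulin G receptor, was at 6.62, 3.77, 4.49 and 5.12 CPM in controls and 22.4, 35.4, 28.2 and 8.48 after diet (2.24 ± 0.36). NOS2, the inducible nitric oxide synthase, was at 4.198, 2.74, 4.33 and 3.68 CPM and 8.02, 7.82, 17.7 and 5.52 (1.39 ± 0.30). CH25H, which makes 25-hydroxycholesterol, rose by 1.53 ± 0.36, and XDH, xanthine oxidoreductase, by 3.77 ± 0.79 from at most 0.213 CPM in controls. Of acute-phase genes, SAA3, a serum amyloid A made outside the liver, was at 46.3, 12.04, 5.55 and 15.5 CPM in controls and 96.7, 221, 230.2 and 36.7 after diet (2.88 ± 0.71, and 3.71 ± 0.73 without control replicate 1). CP, the ferroxidase ceruloplasmin, rose by 2.28 ± 0.49.

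Of the 313 higher genes 39 carry no symbol, and their place in RefSeq's gene order (assembly mOryCun1.1, used for order only) puts several beside known immune genes. Between NLRP2 and RPS9, where the leukocyte immunoglobulin-like receptors lie in other mammals, RefSeq lists 33 protein-coding genes. Of these 12 were tested and 8 rose, by 2.15 to 5.33, all 8 without a symbol. Between DUSP12 and SDHC, the Fc receptor region, all 4 of the 4 tested genes rose, FCGR2A among them. LOC100009097, next to TMEM121 as immunoglobulin heavy chain genes are, was at 16.01, 12.3, 18.4 and 26.8 CPM in controls and 59.1, 133, 102 and 25.2 after diet (2.12 ± 0.41). LOC103347778, next to RPIA and EIF2AK3 as immunoglobulin kappa genes are, was at 18.6, 12.2, 22.1 and 26.2 CPM and 71.1, 156, 127 and 27.6 (2.27 ± 0.41). Both were highest in diet replicate 2 and inside or close to the control range in diet replicate 4. These places were looked up after the values were seen, and genes in such clusters are near-identical copies whose reads can be split among them.

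The lists of lymphocyte, neutrophil, mast cell and red cell genes had few tested members, and 2.05% of all genes were called. Of 13 lymphocyte genes tested 1 rose, IL7R (2.37 ± 0.54, and 1.76 ± 0.49 without diet replicate 3), and 0 fell (median 1.13); 12 of the 25 entries, among them CD2 and CD4, were not tested. Of 5 neutrophil genes tested 0 passed (median 2.04, and 1.14 without diet replicate 2). S100A8 and S100A9, the calprotectin subunits, stayed at or below 6.25 CPM after diet, CXCR2, a receptor for CXCL8, stood at 0.61 ± 0.53, and MMP8 had 0 counts in all 8 libraries. In the mast cell list 1 of 6 passed, HRH1, the histamine H1 receptor, and it was lower. The mast cell protease CPA3 had 0 counts in all 8 libraries. Of 6 erythroid genes 0 passed. Of 13 interferon response genes 0 passed. The antiviral genes IFIT3 (0.66 ± 0.47) and MX1 (0.38 ± 0.39) were among these.

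In the lipid-laden macrophage list 3 of 18 tested members rose and 0 fell (median 0.95). TREM2, a lipid-sensing receptor of foam cells, was at 13.2, 3.77, 3.02 and 8.63 CPM in controls and at 76.8, 53.7, 90.9 and 20.2 after diet (3.08 ± 0.55). GPNMB, a lysosomal glycoprotein, was at 22.98, 10.52, 7.27 and 24.5 CPM and 93.96, 128, 326 and 41.1 (3.17 ± 0.65), and ATP6V0D2, part of the proton pump that acidifies vacuoles, at 1.57, 0.608, 0.245 and 1.17 CPM and 3.35, 9.903, 29.6 and 3.61 (3.69 ± 0.71). The groups did not overlap in any of the 3. Without diet replicate 3 GPNMB stood at 2.42 ± 0.57 and ATP6V0D2 at 2.63 ± 0.56. SPP1, osteopontin, is on this list and on the osteogenic list. It was at 217, 110, 121 and 134 CPM in controls and 290.4, 279, 678 and 190.4 after diet and did not pass (1.30 ± 0.39, adjusted p = 0.105). SPP1 passed in 2 of the 21 fits, 1 of them with 1 library left out. FABP4, a fatty acid carrier of adipocytes and macrophages, stood at -0.46 ± 0.47.

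Of 15 LXR and efflux genes 1 rose: ABCG1, which passes cholesterol to high-density lipoprotein, at 6.97, 2.43, 2.86 and 3.33 CPM in controls and 13.9, 18.6, 16.9 and 5.37 after diet (1.80 ± 0.43). ABCA1, which loads apolipoprotein A1, was at 61.2, 16.97, 19.7 and 18.9 CPM and 37.6, 76.9, 59.01 and 27.8 (0.78 ± 0.42, adjusted p = 0.4799). Its control replicate 1 lay far above the other controls, and without it ABCA1 passed, at 1.42 ± 0.35 (adjusted p = 0.0475, and 0.264 to 0.850 with 1 of the other 7 libraries left out). Of 23 genes of cholesterol biosynthesis 0 passed, and their median of -0.03 equalled that of all genes. With 1 library left out their median ran from -0.30 to 0.11. FDFT1, squalene synthase, was at 60.6, 77.9, 61.2 and 61.4 CPM in controls and 39.4, 42.3, 44.2 and 88.8 after diet, lower in diet replicates 1 to 3 and highest in diet replicate 4 (-0.28 ± 0.22). It passed as lower in 1 of the 8 edgeR fits with 1 library left out (adjusted p = 0.0225). LSS, lanosterol synthase, stood at -0.22 ± 0.16. Of 29 lysosomal genes 3 rose and 0 fell (median 0.32), namely CTSS, LAPTM5 and GUSB, beta-glucuronidase (1.22 ± 0.29).

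Of 24 matrix proteases and inhibitors 4 rose and 0 fell (median 0.87). MMP9, gelatinase B, was at 3.56, 0.243, 0.653 and 0.989 CPM in controls and at 15.3, 18.3, 128 and 5.32 after diet (4.93 ± 0.95). MMP9 stood at 3.24 ± 0.67 without diet replicate 3 and at 6.09 ± 1.10 without control replicate 1. CTSS, cathepsin S, an elastin-degrading protease of macrophages, was at 35.8, 16.5, 15.8 and 21.6 CPM and 63.5, 118, 149 and 34.9 (2.02 ± 0.38). TIMP1, an inhibitor of metalloproteinases, was the most abundant of the 4, at 260, 143, 84.2 and 205 CPM in controls and 779.7, 651, 698 and 292 after diet (1.81 ± 0.34). MMP19 rose by 0.93 ± 0.22, but a row without a symbol holds the same values in every library, and the reads of the pair may be split between overlapping genes. In the plasminogen list 1 of 12 rose: PLAUR, the urokinase receptor, at 2.06, 2.01, 1.06 and 1.798 CPM in controls and 10.299, 11.8, 16.3 and 3.71 after diet (2.59 ± 0.41).

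For structural matrix genes the counts stand beside 2.05% of all genes called, a share at which a list of this size can hold 0. Of 26 collagens 0 passed, although 23 had positive values and the median was 0.56. COL1A1 was at 2782, 1528, 1233 and 1758 CPM in controls and 4308, 6472, 4809.5 and 2376 after diet (1.30 ± 0.37, adjusted p = 0.0841), with diet replicate 4 below control replicate 1. It passed in 3 of the 21 fits, 2 of them with 1 library left out. COL3A1 stood at 0.75 ± 0.34 and COL1A2 at 0.92 ± 0.35. Of 22 collagen processing genes LOXL4, a lysyl oxidase that crosslinks collagen, rose: it was at 11.03, 8.88, 7.02 and 6.65 CPM in controls and 22.9, 16.2, 24.5 and 13.5 after diet (1.19 ± 0.26). Of 16 elastic fibre genes 0 passed, among them FBLN1 (0.73 ± 0.27). Of 23 proteoglycan and hyaluronan genes 2 rose. PRG4, the lubricant lubricin, was at 14.2, 18.3, 6.94 and 6.38 CPM in controls and 143, 48.5, 52.8 and 59.3 after diet (2.72 ± 0.51), and in it diet replicate 1 was the highest. HAS1, a hyaluronan synthase, was at 1.28, 1.76, 1.31 and 1.44 CPM and 8.17, 7.56, 7.34 and 2.66 (2.14 ± 0.50).

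Of 18 tenascin and matricellular genes 3 rose and 0 fell. TNN, tenascin N, was at 2.06, 0.912, 0.816 and 0.989 CPM in controls and 14.7, 5.13, 12.4 and 3.46 after diet (2.89 ± 0.46), without overlap. TNC, tenascin C, a matrix protein of remodelling tissue, was at 62.5, 15.6, 22.8 and 20.04 CPM and 127, 125, 161 and 46.7 (1.93 ± 0.45, and 2.54 ± 0.42 without control replicate 1), and CCN4, a target of WNT signalling, rose by 1.56 ± 0.37. In the TGF-beta and BMP list 1 of 29 rose, the inhibitor SMAD7, at 30.2, 27.01, 29.2 and 28.6 CPM in controls and 36.9, 40.05, 48.9 and 45.9 after diet (0.58 ± 0.14). CHRDL2, a chordin-like BMP antagonist chosen after its values were seen, was at 35.01, 9.18, 2.204 and 13.6 CPM and 112, 83.5, 140.5 and 42.8 (2.66 ± 0.63, and 3.49 ± 0.63 without control replicate 1).

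Genes of bone and cartilage formation did not pass at 4 weeks in the main fit. Of 21 osteogenic and chondrogenic genes tested 0 were called, beside 2.05% of all genes, with a median of 0.13 and 12 positive values. RUNX2, the transcription factor of osteoblasts, was at 2.35, 1.09, 3.102 and 2.07 CPM in controls and 1.47, 2.78, 2.38 and 1.76 after diet (-0.04 ± 0.41). ALPL, tissue-nonspecific alkaline phosphatase, was at 6.26, 4.87, 3.59 and 7.01 CPM and 9.23, 23.4, 11.4 and 5.62 (1.18 ± 0.38, adjusted p = 0.142), with diet replicate 2 far above the rest and diet replicate 4 inside the control range. It passed in 1 of the 8 edgeR fits with 1 library left out (adjusted p = 0.0317). SOX9, of cartilage, stood at 0.21 ± 0.40 and BMP2 at -0.17 ± 0.28, and the groups overlapped in both. Of 16 genes of mineralisation inhibitors and phosphate handling 0 passed. MGP, the matrix Gla protein that restrains calcification, was at 2762, 1870.4, 1334 and 2495 CPM in controls and 2347, 3595, 2663 and 2340.3 after diet (0.37 ± 0.30), and ANKH, which exports pyrophosphate, was at 172, 167, 191 and 149.6 CPM and 236, 230.4, 288 and 208 (0.50 ± 0.21, adjusted p = 0.303). Of 6 vitamin D response genes tested 0 passed. VDR, the vitamin D receptor, was at 0.925, 1.76, 3.76 and 1.62 CPM in controls and 5.53, 2.95, 2.95 and 2.66 after diet (0.81 ± 0.41). CYP27A1, a vitamin D and sterol hydroxylase, stood at -0.41 ± 0.19, and CYP24A1, the catabolic enzyme that the active hormone induces, had at most 5 counts in any of the 8 libraries and was not tested.

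Of 55 mitosis and cytokinesis genes 15 rose and 0 fell, all 55 had positive values, and the median was 1.80. Without control replicate 1 the median was 2.62 and 39 of the 55 passed. Of 29 replication genes 2 rose and 0 fell (median 1.02), and of 16 cyclins, CDK inhibitors and G1 regulators 0 passed (median 0.22). The difference between these lists was not tested. NEK2, a centrosome kinase, was at 0.427, 0.0608, 0.4898 and 0.1798 CPM in controls and 4.57, 2.52, 3.88 and 1.46 after diet (3.41 ± 0.61, adjusted p = 0.0188). BUB1, of the spindle checkpoint, was at 0.6404, 0.122, 0.327 and 0.2696 CPM and 2.18, 2.26, 2.33 and 1.26 (2.54 ± 0.48), and FOXM1, which drives transcription of mitotic genes, was at 1.71, 0.608, 0.735 and 1.26 CPM and 8.63, 7.38, 4.76 and 2.31 (2.41 ± 0.46). The groups did not overlap in the 3 genes, and diet replicate 4 was the lowest diet library in each.

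Among kinesins and centromere genes, KIF18B rose by 3.24 ± 0.64, KIF20A by 2.02 ± 0.44, CENPA, the centromeric histone, by 2.69 ± 0.54 (3.66 ± 0.50 without control replicate 1), SPC25, of the kinetochore, by 1.37 ± 0.29 and BIRC5, survivin, by 1.49 ± 0.32. TOP2A, the topoisomerase of dividing cells, was at 7.47, 1.703, 2.204 and 3.595 CPM in controls and 14.5, 14.7, 14.02 and 7.38 after diet (1.75 ± 0.41). Diet replicate 4 and control replicate 1 were nearly level in it. MCM6, of the replicative helicase, was at 6.33, 3.59, 3.51 and 4.04 CPM in controls and 14.5, 14.4, 15.5 and 6.53 after diet (1.54 ± 0.31), and MYBL2, a partner of FOXM1, rose by 2.48 ± 0.53. EZH2, the catalytic subunit of Polycomb complex 2, and PCLAF, a PCNA-binding protein, were chosen after their values were seen. They rose by 1.48 ± 0.35 and 2.25 ± 0.53, PCLAF standing at 2.91 ± 0.53 without control replicate 1. CDKN1A, the p21 inhibitor of the cell cycle, was at 73.3, 37.9, 44.4 and 60.8 CPM in controls and 148, 100.4, 176 and 59.4 after diet and did not pass (1.16 ± 0.31, adjusted p = 0.0715). It passed in 2 of the 21 fits, 1 of them with 1 library left out. MKI67 had at most 2 counts in any of the 8 libraries and was not tested. Summed over the mitosis list, transcripts took 192, 92.3, 103 and 115 CPM in controls and 387, 324, 319 and 206 after diet.

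Of 15 atrial muscle genes 4 rose and 0 fell, with a median of 5.46 (4.03 without diet replicate 1), and in 9 all diet libraries lay above all controls. NPPA, atrial natriuretic peptide, was at 0.285, 1.09, 2.86 and 1.08 CPM in controls and at 3289, 89.9, 92.1 and 538 after diet (9.57 ± 1.72, adjusted p = 0.0188). MYL4, the atrial essential light chain, was at 6.902, 1.95, 8.82 and 5.84 CPM and 3276, 109, 92.7 and 676 (7.47 ± 1.75). SLN, sarcolipin, which restrains the calcium pump of atrial muscle, was at 0.213, 0.304, 0.571 and 0.1798 CPM and 258, 8.69, 7.29 and 46.4 (7.95 ± 1.72). The order of the diet libraries was alike in the 3 genes, with replicate 1 far above the rest, replicate 4 next and replicates 2 and 3 close together. MYH8, a perinatal myosin, rose by 5.72 ± 1.38. MYL7, the atrial regulatory light chain, missed the threshold at 1.85, 0.547, 2.86 and 6.02 CPM in controls and 655, 21.5, 18.05 and 100.5 after diet (6.18 ± 1.60, adjusted p = 0.0585), as did MYH6 (3.84 ± 1.34), whose control replicate 3 at 944 CPM exceeded diet replicates 2 and 3. Without diet replicate 1 NPPA stood at 7.51 ± 1.38, MYL4 at 5.64 ± 1.503, SLN at 6.01 ± 1.46, MYL7 at 4.09 ± 1.33, MYH6 at 2.21 ± 1.19 and MYH8 at 4.03 ± 1.198. Without control replicate 3 NPPA stood at 10.25 ± 2.07 and MYH6 at 5.25 ± 1.52, and without control replicate 4 MYH8 stood at 6.38 ± 1.68 and MYL7 at 6.85 ± 1.92. MYL7 passed without diet replicate 4 (6.397 ± 1.68, adjusted p = 0.0406).

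Ventricular and general cardiomyocyte genes had negative values in all 25 members tested (median -0.91), 1 of which, FHL2, was called. Over the alternative fits, which include a covariate made from this same list, the median ran from -2.465 to 0.16, with its sign turned in 1. MYH7, the slow ventricular myosin, was at 7661, 3206, 18979 and 7701 CPM in controls and 697, 2558, 483 and 2862 after diet (-2.51 ± 0.85, adjusted p = 0.166), and MYL2, the ventricular light chain, at 2971, 1368, 6377 and 5814 CPM and 186, 1961, 228 and 1504 (-2.09 ± 1.02). TNNT2, cardiac troponin T of both chambers, was at 1678, 1187, 2304 and 2415 CPM and 3301, 1073, 632 and 1382 (-0.25 ± 0.53). Summed, the ventricular and general list took 27320, 13900, 61580 and 36840 CPM in controls and 25890, 13230, 4895 and 18950 after diet, the atrial list 592, 332, 1451 and 965 and 24440, 1035, 939 and 5974. The left ventricular myocardium libraries of the series, by comparison, held at most 92.1 CPM of NPPA and 3.03 CPM of MYL7, beside 37110 to 66330 CPM of MYH7. They also held 74.93 to 3075 CPM of MYH6, another member of the atrial list, and the aorta libraries held 0.521 to 646.9 CPM of it. These are CPM without TMM factors. The part of heart muscle carried along with the cusps in the gene lists above was not tested beyond covariate fits. The covariate was the mean log2 CPM of the tested members of a muscle list, not the sums just given. With the atrial list 261 genes passed, 186 higher and 75 lower, of which 148 were among the 321. With the ventricular list 0 passed and 1782 had an unadjusted p under 0.05, while all 321 genes kept their sign and the medians were 1.90 for macrophage identity, 1.82 for myeloid signalling and 1.67 for mitosis.

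**Figure D3:**
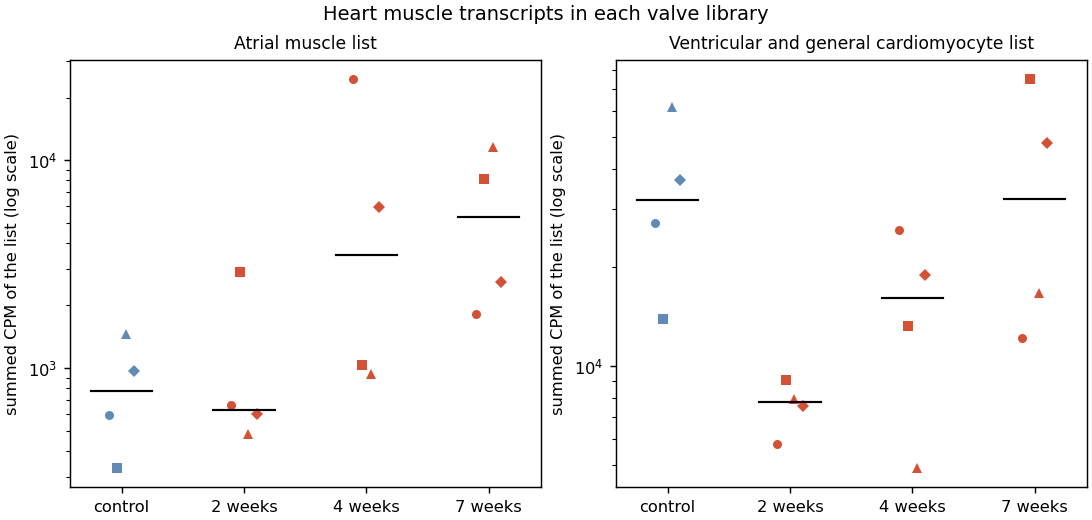
Summed CPM of the atrial list and of the ventricular and general cardiomyocyte list in each of the 16 valve libraries, on log axes, by weeks of diet. Points are libraries, marker shape is the replicate as in the plot of single genes, and bars are medians of 4. Atrial transcripts reach 24440 CPM in 4-week replicate 1, while the highest control holds 1451.

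In the lists of resident and adjoining cell types, counts of 0 called genes are near the 2.05% called among all genes. Of 19 smooth muscle and myofibroblast genes 0 passed and 18 had negative values (median -0.30). ACTA2, smooth muscle actin, was at 7479.6, 11238, 6700.2 and 8490.1 CPM in controls and 4326, 5419.8, 7872 and 8893 after diet (-0.36 ± 0.31), and MYH11 stood at -0.48 ± 0.36. Of 20 interstitial and fibroblast genes 0 passed. VIM, the mesenchymal filament protein, stood at 0.04 ± 0.19. DCN, decorin, was at 2298, 2323, 2269.5 and 2520.2 CPM in controls and 1584, 1904, 1558 and 1757 after diet, lower in every diet library, and did not pass (-0.47 ± 0.27, adjusted p = 0.527). Of 10 adipocyte genes 0 passed, all with negative values (median -0.64), ADIPOQ, adiponectin, at 86.7, 63.6, 54.04 and 163 CPM and 40.5, 96.7, 35.1 and 47.9 (-0.74 ± 0.48). NCAM1, of the Schwann and neural list, in which 0 of 15 passed, stood at -0.39 ± 0.17. The list of mesothelial and epithelial genes reached a median of 2.29 with 0 of 12 called (1.49 without diet replicate 1 and 2.99 without control replicate 2). KRT19, an epithelial keratin, was at 3.77, 8.39, 1.55 and 2.88 CPM in controls and 78.7, 11.3, 13.2 and 25.95 after diet (2.94 ± 0.77, adjusted p = 0.0601), and LRRN4, a mesothelial membrane protein, was at 2.13, 4.44, 0.408 and 0.629 CPM and 27.6, 1.998, 7.34 and 13.1 (2.68 ± 1.05), both highest in diet replicate 1. KRT8 stood at 1.80 ± 0.74. Without diet replicate 1 KRT19 stood at 2.003 ± 0.68, LRRN4 at 1.94 ± 1.06 and KRT8 at 0.70 ± 0.65, and without control replicate 2 KRT19 stood at 3.56 ± 0.87 and LRRN4 at 3.53 ± 1.23. KRT19 passed without diet replicate 4 (3.03 ± 0.82, adjusted p = 0.0469). In the NOTCH and WNT list 0 of 35 passed, with NOTCH2 at -0.21 ± 0.14, SFRP1, a secreted WNT antagonist, at 1.03 ± 0.41 and DKK3 at 2.48 ± 0.71. DKK3 was at 1994, 214, 221 and 558 CPM after diet, in the same order of libraries as NPPA, and stood at 1.31 ± 0.56 without diet replicate 1.

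Of 21 endothelial genes 1 rose, NOS3, endothelial nitric oxide synthase. It was at 0, 0, 0.245 and 0 CPM in controls and 9.39, 0.347, 8.07 and 6.22 after diet (6.55 ± 1.55), that is 3 counts in the 4 controls and 469 in the 4 diet libraries, a ratio of 119.5 after scaling by the groups' summed effective library sizes, with an exact 95% interval of 40.6 to 581.5 that covers counting error only. The fitted value depends on the prior count, since the controls are near 0. Endothelial PECAM1 was at 81.05, 45.98, 87.02 and 71.002 CPM in the same controls and at 75.2, 94.8, 69.7 and 50.5 after diet (0.03 ± 0.29). Diet replicate 2 had nearly as little NOS3 as the controls. CDK5, a kinase gene with 3 genes between it and NOS3 in RefSeq's order, was low and high in the same libraries of both groups, at 0, 0.426, 0.163 and 0 CPM in controls and 5.78, 0.434, 7.19 and 7.88 after diet (4.99 ± 1.201). At 2 weeks NOS3 was at 2.804, 13.3, 0 and 8.61 CPM and CDK5 at 1.73, 6.03, 0 and 7.13, and ABCB8, the 1 tested gene between them, was at 11.6 CPM or more in the 8 control and 4-week libraries. NOS3 stood at 9.55 ± 2.496 without control replicate 3 and CDK5 at 6.44 ± 1.57 without control replicate 2. In the myocardium libraries NOS3 ranged from 0 to 40.5 CPM and in the aorta libraries from 0 to 6.78, both without TMM factors. Whether an allele or the gene models set the counts of NOS3 and CDK5 was not tested.

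All 37 oxidative phosphorylation genes had negative values (median -0.55) and 0 passed. Over the alternative fits the median ran from -1.27 to 0.046, with its sign turned in 1. ATP5F1B, of the ATP synthase, was at 1002, 619.8, 2026 and 1105 CPM in controls and 547, 641, 417 and 916 after diet (-0.91 ± 0.40), highest in control replicate 3 as MYH7 was, and ATP5F1A stood at -0.55 ± 0.33. In the list of fatty acid oxidation and uncoupling 1 of 25 rose and 1 fell. UCP2, a mitochondrial carrier of leukocytes and other cells, was at 24.6, 15.1, 14.4 and 20.4 CPM in controls and 71.1, 106, 96.6 and 24.8 after diet (2.00 ± 0.38). Of 29 glycolysis and hypoxia genes 1 rose, HK3, the hexokinase of myeloid cells, at 0.569, 0.547, 0.816 and 0.719 CPM and 2.64, 4.86, 6.52 and 1.26 (2.52 ± 0.51). In the oxidative stress list HMOX1, haem oxygenase 1, rose (1.73 ± 0.38), 1 of 18. In the immediate early list JUNB rose (1.51 ± 0.30), 1 of 24. DDIT4, an inhibitor of mTORC1 chosen after its values were seen, was at 107, 44.8, 64.98 and 56.3 CPM and 271, 161, 314 and 101.4 (1.63 ± 0.35). Of 25 genes of the unfolded protein and integrated stress response 0 passed, with CALR at 0.32 ± 0.15, HSP90B1 at 0.23 ± 0.15 and XBP1 at 0.18 ± 0.16.

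Of the 8 genes that fell 3 were on a list, each on a different one. FHL2, a LIM-domain protein of heart muscle and fibroblasts, was at 165, 105, 464 and 208 CPM in controls and 40.03, 75.5, 46.9 and 88.3 after diet (-1.91 ± 0.42, adjusted p = 0.0298), without overlap. EPHX2, soluble epoxide hydrolase, which degrades epoxides of arachidonic acid, was at 148, 76.9, 271 and 151 CPM and 52.8, 75.8, 59.9 and 61.2 (-1.37 ± 0.33). EPHX2 passed in 0 of the 8 fits with 1 library left out. In FHL2 and EPHX2 control replicate 3, which held the most ventricular transcripts, was the highest. HRH1 was at 4.13, 5.596, 10.6 and 6.38 CPM in controls and 2.38, 1.82, 3.41 and 2.41 after diet (-1.40 ± 0.30), without overlap. CDK5RAP1, a mitochondrial transfer RNA modifier, had the smallest difference and the tightest groups, at 18.2, 15.1, 18.3 and 17.6 CPM and 11.2, 11.5, 11.5 and 12.9 (-0.56 ± 0.14, adjusted p = 0.0485). The other 4 have no symbol, and the 2 given here were chosen after their values were seen. LOC100341783, a protein-coding model beside MC2R, fell the most: it was at 108, 146, 189.6 and 106 CPM in controls and at 4.82, 3.13, 2.48 and 2.56 after diet (-5.40 ± 0.73). At 2 weeks it was at 38.02, 94.4, 191 and 102 CPM and at 7 weeks at 13.7, 30.2, 153 and 140.5. In myocardium it ranged from 0.282 to 157.1 CPM and in aorta from 1.28 to 62.3, again CPM without TMM factors, so that libraries differed widely within each of these tissues too. Whether an allele or the gene model sets its count was not tested. LOC127488889, between NEU1 and LSM2 in the class III region of the major histocompatibility complex, was at 103, 487, 302 and 281 CPM in controls and 98.6, 115, 47.8 and 83.1 after diet (-1.77 ± 0.39), and its control replicate 1 lay inside the diet range.

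**Figure D4:**
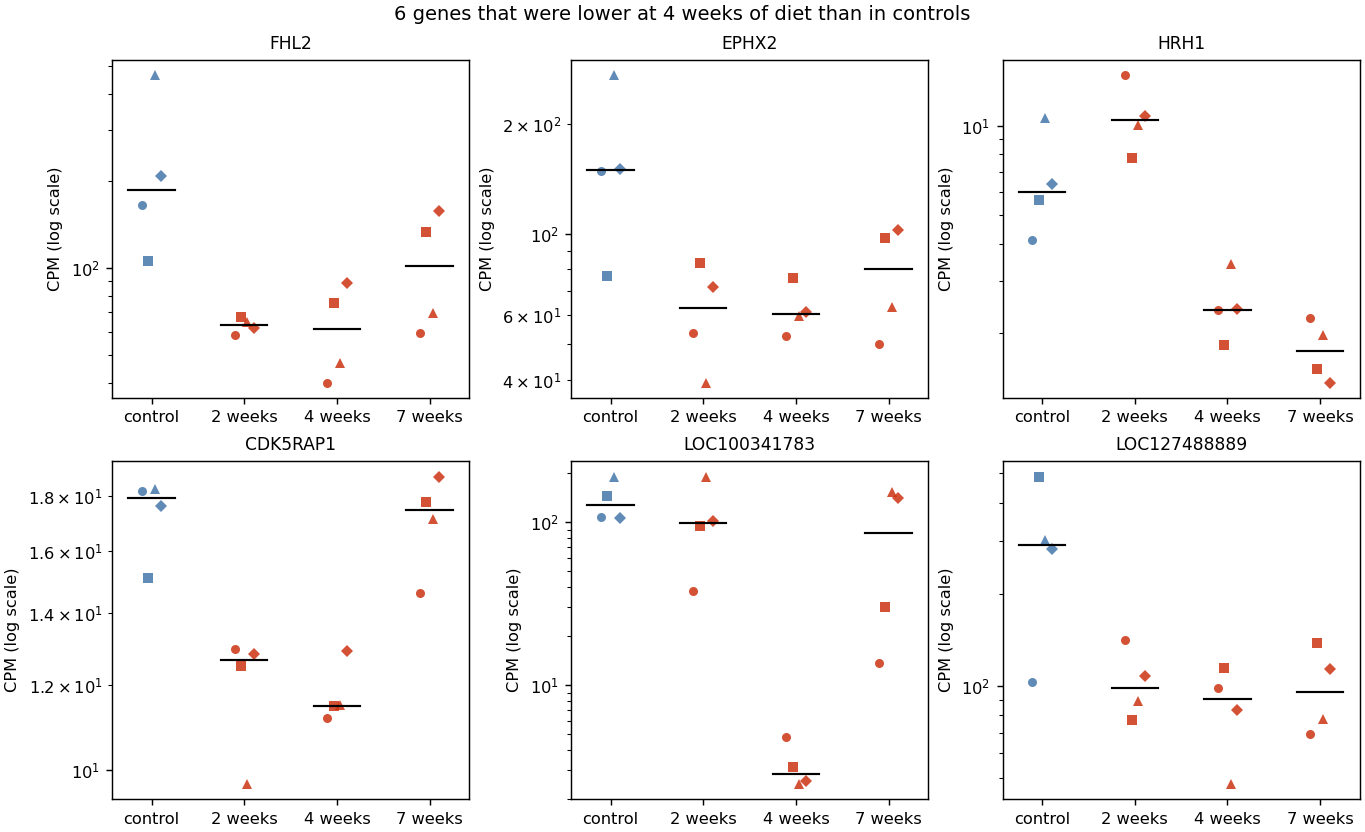
Level of 6 of the 8 genes that were lower at 4 weeks than in controls, in CPM on log axes, in all 16 valve libraries by weeks of diet. Points are libraries and bars medians of 4. LOC100341783 is at 2.48 to 4.82 CPM in the 4-week libraries and at 105.9 CPM or more in controls, and HRH1 is low at 4 and 7 weeks but not at 2 weeks.

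The change from 2 to 4 weeks was tested in the same fit, with the 4-week libraries shared with the comparison above. Between these times 692 genes passed (4.43%), 497 higher (3.18%) and 195 lower (1.25%) at 4 weeks. Macrophage identity had 20 of 27 members higher at 4 than at 2 weeks, myeloid signalling 21 of 27, mitosis 23 of 55, chemokines and receptors 8 of 23, cytokines and receptors 8 of 25, and in these 5 lists 0 were lower. MMP9 was 6.47 ± 1.06 higher at 4 than at 2 weeks, ITGAX 5.09 ± 0.85, CHIT1 4.11 ± 0.76, CLEC5A 4.35 ± 0.69, TNN 3.27 ± 0.47 and CIITA 1.68 ± 0.43. CDKN1A, not called against controls, was 1.72 ± 0.32 higher (adjusted p = 0.00915), and HRH1 was lower, at -2.10 ± 0.31 (adjusted p = 0.00727), from 14.8, 7.81, 10.1 and 10.8 CPM at 2 weeks. In other genes the 4-week level did not differ from the 2-week level past the threshold: SOCS3 (0.85 ± 0.30), PRG4 (1.74 ± 0.49), ICAM1 (0.65 ± 0.25), FHL2 (-0.01 ± 0.40), EPHX2 (0.01 ± 0.33) and COL1A1 (0.44 ± 0.36). Elastic fibre genes had 3 of 16 lower and 0 higher at 4 weeks and smooth muscle genes 3 of 19 lower and 0 higher, with ACTA2 at -1.16 ± 0.31 (adjusted p = 0.0485). RN18S was lower too, at -2.27 ± 0.52, and with its share as a covariate 1 gene passed between 2 and 4 weeks and 0 between 4 weeks and control. In that last fit all 321 genes kept their sign, with medians of 1.66 for macrophage identity, 1.40 for myeloid signalling and 1.15 for mitosis.

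From 4 to 7 weeks 17 genes passed (0.109%), all higher at 7 weeks, and 16 of them have no symbol. The macrophage, myeloid signalling and mitosis medians of the 7-week minus 4-week difference were 0.11, -0.01 and -0.14, with 1, 0 and 0 members called. The 1 macrophage gene was LYZ, the enzyme lysozyme, listed under a locus number that RefSeq pairs with this symbol and chosen after its values were seen. It was at 0, 0, 0.3103 and 0.1004 CPM at 4 weeks and 2.37, 3.04, 35.1 and 29.1 at 7 weeks. LOC100341783 was called in this direction as well (4.70 ± 0.71, adjusted p = 0.0129). For TREM2 (0.20 ± 0.50), CD68 (0.29 ± 0.37), MMP9 (-1.16 ± 0.78), NEK2 (-0.52 ± 0.51), NPPA (0.08 ± 1.16) and SPP1 (0.71 ± 0.38) the 7-week and 4-week levels did not differ past the threshold. The sample numbers in the labels' library names are 1 to 4 at 7 weeks, 21 and 36 to 38 at 4 weeks, 27 to 30 at 2 weeks and 31 to 34 in controls. Group and sample number therefore cannot be told apart.

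**Figure D5:**
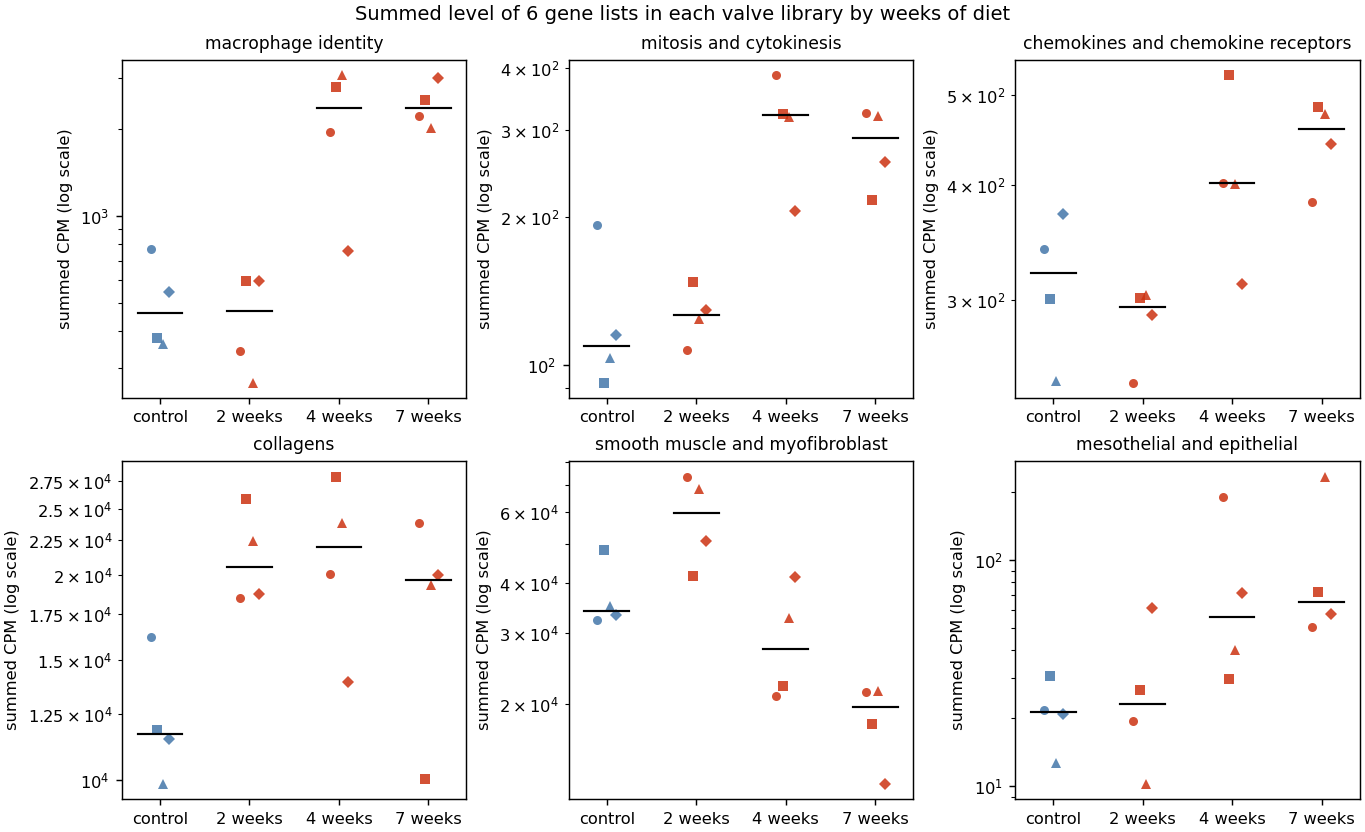
Summed CPM of 6 gene lists in each of the 16 valve libraries, on log axes, by weeks of diet. Points are libraries, marker shape is the replicate and bars are medians of 4. Macrophage and mitosis transcripts lie at the control level at 2 weeks and above it in 4-week replicates 1 to 3, with 4-week replicate 4 near the highest control.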

How the data were processed

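RNA from 1 cusp per animal was extracted with Trizol and sequenced after a directional library kit, per the labels' protocols. The deposited values are RSEM expected counts per gene, of which 10.03% are not whole. Per the submitters' processing notes, the authors' tools included edgeR 3.42.4, RSEM 1.3.3, STAR 2.7.8a, Trim Galore 0.6.6 and FastQC 0.11.9. The sources used here give neither a genome build nor a strand setting for the counting. Per the design text, the authors took out genes present in myocardium and valve but not in ascending aorta (346 of 31346).

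Expected counts were rounded and fitted with edgeR 4.0.16 in R 4.3.3 (TMM, filterByExpr with a minimum count of 10 and a total of 15, quasi-likelihood F test, two-sided) over all 16 valve libraries, which share 1 estimate of spread. The contrasts were 4 weeks minus control, 4 minus 2 weeks and 7 minus 4 weeks, with Benjamini-Hochberg adjustment over 15627 genes. Standard errors are the absolute log2 fold change divided by the root of F. The fit was also run on simulated counts with known changes. These held no shifts shared by the genes of a library, so that run says nothing on how the calls depend on single libraries. Nothing in the labels says more of the animals than their codes, so p-values measure the spread between these samples.

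Genes were named by rule: the 20 higher genes with a symbol, no overlap between groups, a mean of at least 5 CPM and the largest change, every lower gene with a symbol, up to 8 called members of each list by smallest p, 3 abundant members of a list without calls, and a fixed set. Of these, 22 are not reported here, and genes outside the rule were chosen after their values were seen, as the text says where it names them. Genes without a symbol in the table were matched to RefSeq's gene table (mOryCun1.1), which paired 521 of 14615 locus numbers with a symbol. The members and lists were chosen with earlier results of these data known. Lists are described by counts and medians without a test.

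Alternatives were DESeq2 1.42.0, other size factors, filters and tables, fewer libraries, a replicate block, muscle and RN18S covariates, and leaving out each library. Counts limit precision at low levels, and the interval given for NOS3 covers counting error only.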

Additional observations from a re-analysis of the deposited data

Results flagged for a closer look

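Of 406 groups of 4 libraries tested for a sample far from the other 3, 25 had one, a share not far above the about 5% that chance gives. In 8 of them diet replicate 4 was the low sample: CCL2 (5.07 CPM), MCM6 (6.53 CPM), BUB1 (1.25 CPM), CORO1A (12.6 CPM), HAS1 (2.66 CPM), XBP1 (283.4 CPM), TOP2A (7.38 CPM) and the summed DNA replication list (244.5 CPM). It was the high sample for FDFT1 (88.8 CPM), CYP27A1 (73.04 CPM) and BMP2 (6.43 CPM). Diet replicate 2 was far below the others for CDK5 (0.434 CPM) and NOS3 (0.348 CPM), and diet replicate 1 was far above them for VDR (5.53 CPM) and the summed glycolysis and hypoxia list (8718 CPM).

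Among the controls, replicate 1 was the high sample for CENPA (1.85 CPM), ABCA1 (61.2 CPM) and VCAM1 (55.3 CPM). Replicate 2 was high for FDFT1 (77.85 CPM) and NOTCH2 (135.0 CPM) and low for the summed lymphocyte list (16.4 CPM) and the summed endothelial list (637 CPM). Replicate 3 was high for NOS3 (0.245 CPM, with 0 in the other 3) and low for GUSB (20.25 CPM) and the summed collagen processing list (2226 CPM).

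Levels in diet valves differed between times, by a test of the difference itself, in 692 genes between 4 and 2 weeks and in 17 between 7 and 4 weeks. These contrasts hold no controls matched in time, so weeks of diet and other differences between the groups cannot be told apart.

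Among the 346 genes taken out by the authors, 1 without a symbol passed in the unfiltered table. It was lower after 4 weeks, with a log2 fold change of -5.81 ± 1.36 (adjusted p = 0.0398 by edgeR), at 0, 0.196, 0 and 0 CPM beside 0.641, 1.47, 2.74 and 3.25 CPM in controls.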

How the results depend on the processing

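The count of 321 genes at 4 weeks was 316 to 325 with other size factors, filters on low counts, the unfiltered table or a robust spread. With the atrial covariate it was 261, of which 148 were among the 321, and lower genes went from 8 to 75. It was 751 by DESeq2, 128 without the 7-week libraries, 2 with only the 8 libraries (1867 at an unadjusted p under 0.05), 0 with the ventricular covariate (1782) and 0 with the RN18S covariate (971), and 0 to 794 with 1 library left out. Between 4 and 2 weeks the 692 genes became 1466 by DESeq2, 274 with the atrial covariate, 1 with the RN18S covariate and 291 to 1248 with 1 library left out. Between 7 and 4 weeks the 17 genes became 190 by DESeq2, 0 with the RN18S covariate and 4 to 21 with 1 library left out. The cause of these moves was not tested.

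The labels do not say whether replicate numbers pair the animals. The deviations of same-numbered libraries correlated at -0.241 to 0.0876 and those of differently numbered ones at -0.263 to 0.22. With 4 libraries in each group these values cannot decide on pairing. With the replicate block 5 genes passed at 4 weeks, 292 between 4 and 2 weeks and 10 between 7 and 4 weeks.

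With the atrial covariate the median of the atrial list was 0.15 and that of the mesothelial list -0.05, and signs turned for KRT8 (-0.71), LRRN4 (-0.058), DKK3 (-0.090), ACTA2 (0.020), PECAM1 (-0.10), RUNX2 (0.14), SOX9 (-0.031) and MYH6 (-0.95). The ventricular covariate turned ATP5F1A (0.037), VIM (-0.13), RUNX2 (0.18) and TNNT2 (0.49), and the RN18S covariate VIM (-0.060), PECAM1 (-0.31), SOX9 (-0.10) and TNNT2 (0.29). With 1 library left out VIM ranged from -0.049 to 0.11, BMP2 from -0.29 to 0.037, PECAM1 from -0.14 to 0.16, RUNX2 from -0.27 to 0.18 and TNNT2 from -0.88 to 0.017. None of these genes was called. The atrial covariate was made from the atrial list, which holds MYH6 and DKK3, and the ventricular covariate from the list that holds TNNT2. Moves of a list or of its members under its own covariate are partly built into the fit.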
